A study of Mus musculus with 16 samples.

Results

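The 10 genes described are the receptors Notch1, Notch2 and Notch3, the ligands Jag1 and Dll1, the transcription factors Hes1, Hes5, Hey1 and Hey2, and the feedback inhibitor Nrarp. They were chosen by symbol, with earlier results of these data known, from the 24060 genes measured in astrocytes and whole cortex of mice. Each was present in the tables of all 16 libraries. The mice were Aldh1l1CreERT2-RiboTag animals on the C57BL/6J background, 3 months old, in which tamoxifen at 2 months switched on an HA-tagged ribosomal protein, Rpl22, in cells that express the astrocyte gene Aldh1l1. These ages are from the labels, which give 1 month after tamoxifen, whereas the study's methods give 2 weeks after the last injection. Stressed mice spent 20 min in a bucket of water and then 90 min in the home cage, and naïve mice never left the home cage. From each somatosensory cortex, ribosomes with their mRNA were pulled down with an antibody against HA (IP), and RNA of the cleared lysate (INPUT) stood for all cell types. All 4 groups (IP and INPUT, each naïve or stressed) carried the same transgenes and had received tamoxifen, and each held 4 libraries, named here by their library number. The IP shows mRNA on tagged ribosomes only, so it depends on which cells the Cre reached, and protein was not measured. Both sexes were used, 4 males and 4 females by the study's methods. The labels give neither the sex of each mouse nor which IP and INPUT libraries came from 1 animal.

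Notch receptors are single-pass membrane proteins that are activated by Jagged or Delta-like ligands on a neighbouring cell. Ligand binding leads to cleavage by ADAM proteases and then by γ-secretase, and the freed intracellular domain enters the nucleus, binds RBPJ and Mastermind proteins, and switches on genes of the Hes and Hey families, which encode basic helix-loop-helix repressors, and Nrarp, whose product limits the signal. In the adult brain the pathway is known for keeping astrocytes and neural stem cells in their state and for its part in blood vessels, where Notch3 is the receptor of mural cells.

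In naïve mice 9 of the 10 genes were higher in IP than in INPUT and Dll1 was lower, by limma on log2(CPM + 0.1) with Benjamini-Hochberg adjusted p under 0.05, where CPM is reads on a gene per 1000000 reads on all genes of a library. IP and INPUT did not overlap for any of the 10. Calls were common in this comparison: 87.7% of the 13339 genes tested differed, 23.7% with higher and 64% with lower values in IP, and the groups did not overlap for 83.7%. In stressed mice the same 9 genes were higher and Dll1 lower, against 86.1% called of 13333 genes, 23.6% higher and 62.5% lower, and the groups again did not overlap for any of the 10 (81.4% of genes). Over all genes the median log2 ratio stood at −0.64 in naïve and −0.63 in stressed mice. With library scaling by the median ratio it was 0.01 and 0.0016, 42.4% of genes were then called higher and 41.8% lower in naïve mice (41.2% and 40.9% in stressed mice), and the calls and directions of the 10 genes were the same.

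**Figure D1:**
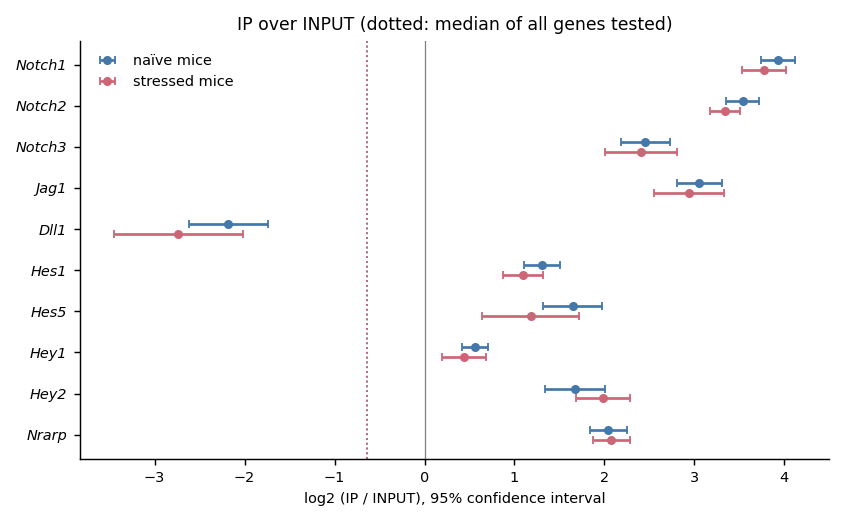
Log2 ratio of IP to INPUT (x axis, log2 scale) for the 10 genes in naïve (blue) and stressed (red) mice, with 95% confidence intervals from limma on 4 against 4 libraries; dotted lines are the medians of all genes tested. The intervals of 9 genes lie above 0, Notch1 highest at 3.93 in naïve mice, and that of Dll1 lies below 0.

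Notch1 had one of the highest ratios in the whole comparison. Its level was 326, 311, 369 and 336 CPM in naïve IP replicates 2, 8, 11 and 13, and 24.0, 24.9, 20.1 and 19.0 CPM in naïve INPUT replicates 3, 7, 14 and 16. Every IP library was far above every INPUT library. The log2 ratio was 3.93 (SE 0.088), or 15.3-fold, with an adjusted p of 7.7e-14, and 99.9% of the genes tested had a lower ratio. In stressed mice the log2 ratio was 3.78 (SE 0.11). Notch2, whose product responds to the same ligands, measured 303, 284, 348 and 303 CPM in naïve IP and 22.6, 26.1, 29.5 and 28.3 CPM in naïve INPUT, a log2 ratio of 3.54 (SE 0.086, 11.6-fold, adjusted p 1.5e-13). For both receptors the fractions lay far apart. Notch3, the receptor known from mural cells, measured 30.0, 28.6, 39.4 and 27.3 CPM in naïve IP and 5.08, 5.71, 6.38 and 5.19 CPM in naïve INPUT. Its log2 ratio was 2.46 (SE 0.12, 5.49-fold, adjusted p 2.7e-10). In stressed mice the ratios of Notch2 and Notch3 were 3.34 (SE 0.078) and 2.41 (SE 0.18).

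Since Notch3 and Jag1 are also genes of blood vessel cells, markers of those cells stand beside their ratios. Of 7 mural cell markers, 5 were tested in naïve mice, 4 were lower in IP and Pdgfrb was higher, with a log2 ratio of 2.37. The summed level of the mural markers was 135 to 157 CPM in naïve IP, 102 to 148 in stress IP, 62.8 to 73.5 in naïve INPUT and 58.8 to 71.9 in stress INPUT. Without Pdgfrb it was 7.72 to 14.1, 6.85 to 13.2, 35.4 to 49.1 and 38.2 to 49.6 CPM. Kcnj8, a channel gene of pericytes, measured 0.252 ± 0.0707 CPM in naïve IP and 3.92 ± 0.265 CPM in naïve INPUT (SD, n = 4), and was at 0 in stress IP replicate 4. All 6 endothelial markers were lower in IP, with sums of 11.5 to 17.7 CPM in naïve IP, 8.92 to 11.3 in stress IP, 54.6 to 89.5 in naïve INPUT and 45.9 to 68.3 in stress INPUT. Of the astrocyte markers, 7 of 7 were higher in IP, and the markers of neurons (7), oligodendrocytes (5), their precursors (3) and microglia (5) were all lower, in naïve and in stressed mice. The part of these cells in the levels of Notch3 and Jag1 was not tested, and in bulk samples fewer cells of a type and less RNA per cell cannot be told apart.

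The ligands differed in direction. Jag1 measured 58.7, 59.2, 50.1 and 57.2 CPM in naïve IP and 8.08, 6.36, 5.39 and 7.17 CPM in naïve INPUT. The 2 groups were far apart, with a log2 ratio of 3.05 (SE 0.12, 8.30-fold, adjusted p 1.2e-11) in naïve mice and 2.94 (SE 0.18) in stressed mice. Dll1, a Delta-like ligand, was the only one of the 10 with less signal in IP. It measured 0.832, 0.582, 0.705 and 0.659 CPM in naïve IP, from 17, 13, 18 and 17 reads, and 3.50, 3.41, 2.94 and 4.17 CPM in naïve INPUT, from 62, 58, 59 and 82 reads. Its log2 ratio was −2.18 (SE 0.20, adjusted p 2.0e-07) in naïve and −2.74 (SE 0.33) in stressed mice, on the log2(CPM + 0.1) scale, which understates the ratio of so low a gene.

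All 5 target genes were higher in IP, with log2 ratios between 0.56 and 2.04 in naïve mice. Hes1 measured 30.9, 25.2, 33.6 and 29.3 CPM in naïve IP and 11.9, 12.3, 11.7 and 12.0 CPM in naïve INPUT, a log2 ratio of 1.30 (SE 0.092, 2.47-fold). For Hes5 the levels were 22.1, 14.8, 22.3 and 14.5 CPM in naïve IP and 5.20, 5.48, 6.28 and 5.90 CPM in naïve INPUT, a log2 ratio of 1.65 (SE 0.15, 3.13-fold). Within naïve IP the Hes5 values formed a higher pair, replicates 2 and 11, and a lower pair, replicates 8 and 13. Hey1 measured 67.3, 67.8, 74.7 and 72.9 CPM in naïve IP and 50.7, 43.6, 49.8 and 47.3 CPM in naïve INPUT, the smallest log2 ratio of the 9, 0.56 (SE 0.066, 1.48-fold, adjusted p 2.4e-06). Hey2 measured 13.0, 17.0, 22.1 and 14.1 CPM in naïve IP and 5.31, 4.36, 5.24 and 5.24 CPM in naïve INPUT, a log2 ratio of 1.67 (SE 0.15, 3.18-fold). Of the targets, Hey1 was thus the one whose fractions lay closest to each other. Nrarp measured 66.0, 75.5, 86.1 and 75.2 CPM in naïve IP and 16.0, 17.1, 20.3 and 19.7 CPM in naïve INPUT, a log2 ratio of 2.04 (SE 0.096, 4.12-fold). In stressed mice the log2 ratios of Hes1, Hes5, Hey1, Hey2 and Nrarp were 1.09, 1.18, 0.44, 1.98 and 2.08 (SE 0.10, 0.25, 0.11, 0.14 and 0.094).

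**Figure D2:**
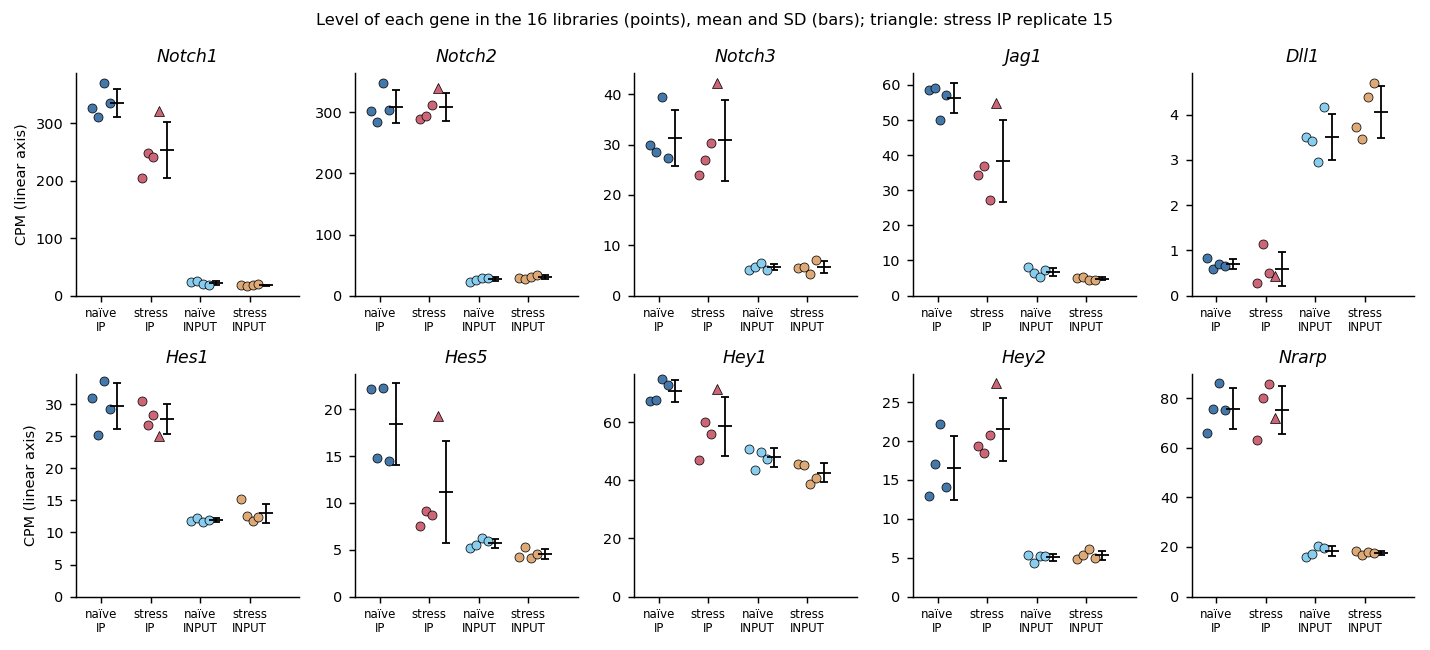
Level of each of the 10 genes in CPM (linear y axes from 0) in the 4 libraries of each group (x axis), with the mean and SD beside them; the triangle is stress IP replicate 15. IP lies above INPUT in every panel except that of Dll1. In the panels of Notch1, Jag1, Hes5 and Hey1 the triangle stands apart from the other 3 stress IP libraries. The same holds for Notch3 and Hey2, where the triangle also lies above all naïve IP libraries.

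The sequence before the start of the targets is shown because these are the genes that the RBPJ complex is known to bind. The window searched was the 250 bases before each RefSeq start on GRCm38.p6, and the letters searched were TGGGAA on either strand, the core of the RBPJ site. Of the 10 genes, 8 had an entry, with 9 promoters since Dll1 had 2; Hes1 and Hey1 had none. Hes5 held the letters at 2 places, 226 bases before the start on the strand opposite to the gene and 82 bases before it on the strand of the gene. Hey2 held them at 1, 207 bases before the start on the opposite strand. The windows of Notch1, Notch2, Notch3, Jag1, Dll1 and Nrarp held none, which says only that these letters are not in this window. Of all 32851 promoters, 21.6% held 1 or more and 2.77% held 2 or more. The windows printed are those of Hes5 and Hey2, which hold the letters, and of Nrarp, a target without them, 5′ to 3′ in the direction of the gene with matches in capitals (TTCCCA is the match on the opposite strand).
Hes5 promoter, chr4:154960673-154960922, plus strand: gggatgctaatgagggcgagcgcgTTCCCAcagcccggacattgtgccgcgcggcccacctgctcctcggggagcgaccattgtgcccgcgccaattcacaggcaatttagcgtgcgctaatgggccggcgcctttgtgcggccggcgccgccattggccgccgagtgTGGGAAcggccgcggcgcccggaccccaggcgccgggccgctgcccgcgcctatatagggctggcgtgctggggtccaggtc
Hey2 promoter, chr10:30842784-30843033, minus strand: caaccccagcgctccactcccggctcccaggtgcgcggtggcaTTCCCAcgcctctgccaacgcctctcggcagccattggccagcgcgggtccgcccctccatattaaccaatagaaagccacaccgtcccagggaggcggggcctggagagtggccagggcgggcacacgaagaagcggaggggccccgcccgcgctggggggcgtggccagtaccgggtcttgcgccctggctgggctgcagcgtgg
Nrarp promoter, chr2:25180508-25180757, plus strand: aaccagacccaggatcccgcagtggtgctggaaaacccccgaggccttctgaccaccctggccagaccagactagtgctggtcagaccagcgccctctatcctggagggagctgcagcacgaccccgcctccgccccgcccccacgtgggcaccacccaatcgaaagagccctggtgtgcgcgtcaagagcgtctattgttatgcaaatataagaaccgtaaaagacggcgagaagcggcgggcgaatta

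On GRCm38, Notch1 lies at chr2:26457903-26516663, Jag1 at chr2:137081456-137116644, Hes5 at chr4:154960923-154962371, Hey1 at chr3:8663359-8667256 and Hey2 at chr10:30832359-30842801. Levels of different genes were compared per length, as CPM per kb of exon, with exon lengths from GENCODE M21 on GRCm38. Reads were counted on RefSeq genes, so these lengths can include exons that were not counted, which lowers the level per kb. The GENCODE gene of Notch1 reaches to 26516663, while its RefSeq promoter window begins at 26503823, inside that gene. How far the order of genes depends on the source of the lengths was not tested. In naïve IP the order was Nrarp (29.3 ± 3.19 CPM per kb, SD, n = 4), Notch2 (28.7 ± 2.51), Notch1 (23.6 ± 1.73), Hey1 (21.6 ± 1.13), Hes1 (14.6 ± 1.73), Hes5 (13.5 ± 3.21), Jag1 (9.66 ± 0.727), Notch3 (3.87 ± 0.681), Hey2 (3.60 ± 0.892) and Dll1 (0.165 ± 0.0248). The libraries overlapped between the neighbours Nrarp and Notch2, Notch1 and Hey1, Hes1 and Hes5, and Notch3 and Hey2. In naïve INPUT the order was another, led by Hey1 (14.7 ± 0.977), Nrarp (7.09 ± 0.802), Hes1 (5.86 ± 0.131) and Hes5 (4.19 ± 0.351), with Notch2 (2.47 ± 0.283) and Notch1 (1.55 ± 0.204) after all of these. From Notch1 downwards each neighbour overlapped, through Jag1 (1.16), Hey2 (1.10), Dll1 (0.831) and Notch3 (0.691). In stress IP, Nrarp (29.1 ± 3.80) and Notch2 (28.6 ± 2.09) again led and stood above the rest, Hey1 (17.9 ± 3.09) and Notch1 (17.8 ± 3.43) followed, and all neighbours from Hey1 down to Notch3 (3.82 ± 0.996) overlapped, before Dll1 (0.139 ± 0.0897). In stress INPUT, Hey1 (13.1 ± 1.05) led, Nrarp (6.83 ± 0.291) and Hes1 (6.37 ± 0.747) overlapped, as did Hes5 (3.33 ± 0.409) and Notch2 (2.82 ± 0.263), and the other 5 lay between 0.702 and 1.28 CPM per kb.

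The rest of the pathway was less one-sided than the 10 genes. Of 61 other Notch pathway genes in 9 roles, 54 were tested in naïve mice, 19 were higher in IP (35.2%, against 23.7% of all genes), 23 were lower (42.6%, against 64%) and 12 were not called, with a median log2 ratio of 0.0014 against −0.64 for all genes. In stressed mice 19 were higher (35.2%, against 23.6%), 20 lower (37.0%, against 62.5%) and 15 not called. The counts by role that follow are for naïve mice and read against the same 23.7% and 64%. The remaining receptor, Notch4, measured 4.50 ± 0.887 CPM in naïve IP and 4.13 ± 0.699 CPM in naïve INPUT (SD, n = 4), and was not called (log2 ratio 0.11, adjusted p 0.55); with median-ratio scaling it was called higher, at 0.75. Of the 3 other ligands tested, Dner, a Notch ligand known from neurons, was higher (1.27) and 2 were lower, Dlk2 most (−2.89). Lfng, a glycosyltransferase that alters which ligands a receptor answers to, had 149 ± 25.9 CPM in naïve IP and 18.9 ± 4.12 CPM in naïve INPUT, a log2 ratio of 2.98, while its relative Rfng had −1.51. Among the proteases that cleave the receptor, 2 of 10 were higher, Adam17 most (1.11), and 4 were lower, Aph1c, a γ-secretase subunit, most (−1.49).

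In the nuclear complex, the coactivator Maml2 had a log2 ratio of 3.19, from 80.5 ± 5.56 CPM in naïve IP and 8.76 ± 0.625 CPM in naïve INPUT, and Maml3 one of −2.28. Of the ligases that act on the ligands, Mib1 was at 0.15 and Neurl1a, a Neuralized gene, at −3.53; Mib1 was no longer called without naïve INPUT replicate 3 (0.13, adjusted p 0.051). For receptor sorting and turnover the extremes were Dtx1 (0.91) and Numbl (−2.59), a Numb relative. Of 12 corepressors, 6 were higher, with Ctbp2 first (1.11), and 4 lower, with Hdac2 last (−0.91). The other Hes and Hey genes that were tested were both higher, Heyl (2.10, 10.4 ± 3.43 CPM in naïve IP) and Hes6 (0.37). Hes6 was no longer called in 7 of its 17 alternatives, with adjusted p up to 0.14.

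**Figure D3:**
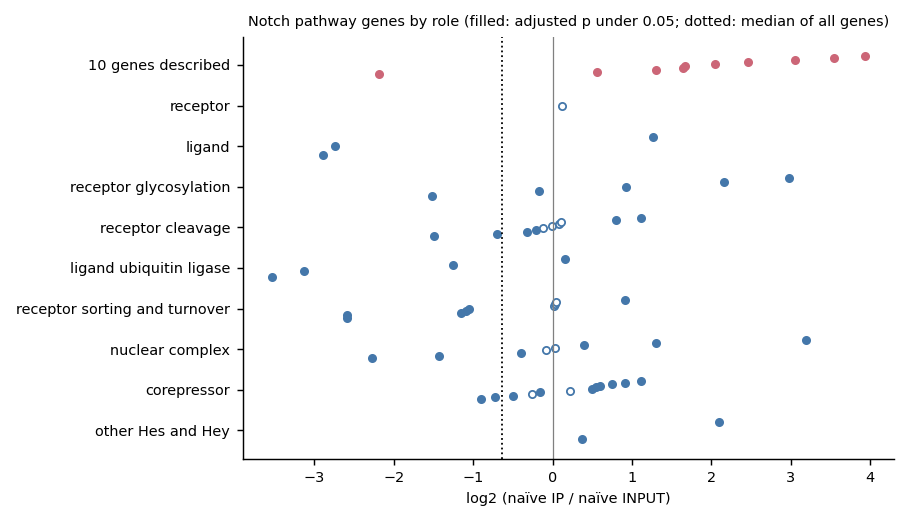
Log2 ratio of naïve IP to naïve INPUT (x axis) for the 10 genes (red) and for the 54 other Notch pathway genes that were tested, grouped by role (blue); filled points had an adjusted p under 0.05, and the dotted line is the median of all genes tested, −0.64. The 10 genes lie right of 0 except Dll1, while most other roles hold genes on both sides.

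The comparison of stressed with naïve mice within IP asks which astrocyte mRNAs differ 90 min after the swim. None of the 9 genes that passed the filter of a mean above 1 CPM was called there by limma with an adjusted p under 0.05, where 0.44% of 12501 genes were (0.224% lower, 0.216% higher); Dll1 was under the filter. At an unadjusted p under 0.05, 4 of the 9 had lower values after stress (Notch1, Jag1, Hes5 and Hey1), where 4.82% of all genes did, and 1, Hey2, had higher values, where 3.45% did. The genes were chosen with earlier results of these data known, so these shares, and those for INPUT below, only describe them. Stress and naïve libraries overlapped for all 10 genes, as they did for all but 5% of genes. The median log2 difference was −0.098 over the 9 genes and −0.0036 over all genes.

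Notch1 measured 205, 248, 240 and 321 CPM in stress IP replicates 4, 5, 6 and 15, against 311 to 369 CPM in naïve IP. Replicates 4, 5 and 6 lay below every naïve library, and replicate 15 lay inside the naïve range. The log2 difference was −0.42 (SE 0.11, 95% interval −0.67 to −0.17), with an adjusted p of 0.22 by limma and an exact permutation p of 0.057, two-sided. Jag1 measured 34.4, 37.0, 27.2 and 54.8 CPM in stress IP, against 50.1 to 59.2 CPM in naïve IP, with the same library inside the naïve range and the other 3 below it. Its log2 difference was −0.60 (SE 0.16, interval −0.96 to −0.23, adjusted p 0.24, exact permutation p 0.057). So Notch1 and Jag1 had the same arrangement of libraries.

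Hes5 measured 7.49, 9.17, 8.76 and 19.3 CPM in stress IP replicates 4, 5, 6 and 15, against 14.5 to 22.3 CPM in naïve IP. The first 3 of these were 40.6%, 49.7% and 47.5% of the naïve mean, and replicate 15 was 105% of it. The log2 difference of Hes5 was −0.79 (SE 0.26, interval −1.36 to −0.22, adjusted p 0.39, exact permutation p 0.086). Hey1 measured 47.0, 60.0, 55.9 and 71.3 CPM in stress IP, against 67.3 to 74.7 CPM in naïve IP. Once more replicates 4, 5 and 6 lay below the naïve range and replicate 15 within it. The log2 difference of Hey1 was −0.29 (SE 0.11, interval −0.52 to −0.05, adjusted p 0.48, exact permutation p 0.086).

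Hey2 went the other way among the Hes and Hey genes, with 19.4, 18.5, 20.8 and 27.4 CPM in stress IP against 13.0 to 22.1 CPM in naïve IP. Only replicate 15 lay above all naïve libraries, and the log2 difference was 0.39 (SE 0.17, interval 0.03 to 0.76, adjusted p 0.56, exact permutation p 0.14). Hes1 measured 30.6, 26.8, 28.3 and 25.1 CPM in stress IP, a log2 difference of −0.10 (SE 0.097, interval −0.31 to 0.11, adjusted p 0.84). Notch2 and Nrarp differed by −0.0024 (SE 0.073, interval −0.16 to 0.16) and −0.01 (SE 0.10, interval −0.23 to 0.21), with all 4 stress IP libraries of Notch2 inside the naïve range. Neither interval reaches −0.42, the estimate for Notch1, but the interval of Notch1 itself, −0.67 to −0.17, overlaps that of Nrarp. Differences between genes were not tested. Notch3 measured 23.9, 27.0, 30.3 and 42.3 CPM in stress IP, below the naïve range in replicates 4 and 5 and above it in replicate 15 (log2 difference −0.04, SE 0.16, interval −0.40 to 0.32). Dll1 measured 0.268, 1.13, 0.502 and 0.442 CPM in stress IP, from 6 to 23 reads, and its exact permutation p was 0.40. No difference was found, and the size of difference detectable at this depth was not computed.

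**Figure D4:**
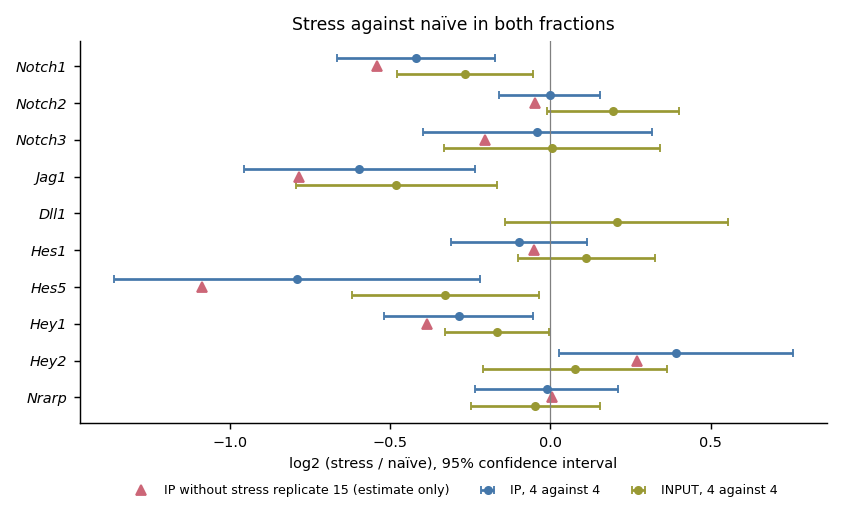
Log2 difference between stressed and naïve mice (x axis) for the 10 genes in IP (blue) and INPUT (olive), with 95% confidence intervals from limma on 4 against 4 libraries, and the IP estimate without stress IP replicate 15 (red triangles, no interval drawn); Dll1 was under the filter in IP. Notch1, Jag1, Hes5 and Hey1 lie left of 0 in both fractions, and without replicate 15 their IP estimates lie further left, Hes5 at −1.09.

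Whether Notch1, Jag1 and Hes5 were called depended on 1 library and, for Notch1 and Jag1, also on the model. Stress IP replicate 15 was the highest or the lowest of its group for 60.8% of genes, and naïve IP replicate 11 for 62.6%, against 40.0% to 50.3% for the other 6 IP libraries. Without replicate 15, limma called 3 of the 9 genes lower and 0.808% of 12507 genes in all (0.472% lower). The log2 differences were then −0.54 for Notch1 (SE 0.078, adjusted p 0.0072), −0.78 for Jag1 (SE 0.10, adjusted p 0.0041) and −1.09 for Hes5 (SE 0.17, adjusted p 0.0092). Hey1 was at −0.39 (SE 0.085, adjusted p 0.066), and Hey2 at 0.27 (adjusted p 0.49). Without both replicate 15 and naïve IP replicate 11, the same 3 genes were called, at −0.49, −0.84 and −0.99, among 1.7% of 12513 genes. With array weights Notch1 and Jag1 were called (adjusted p 0.033 and 0.015), among 1.14% of genes. The same 2 were called by limma-voom on the recovered reads of all 16 libraries, among 0.896%. Fitted to the IP libraries alone, limma-voom called 0.392% of genes and none of the 9. The study's methods name limma-voom as its test and do not say which libraries shared a model. Leaving out any of the other 7 IP libraries gave no call among the 9 genes. Nothing in the labels sets replicate 15 apart from the other stressed mice, so the values with all 4 libraries stand as the result.

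**Figure D5:**
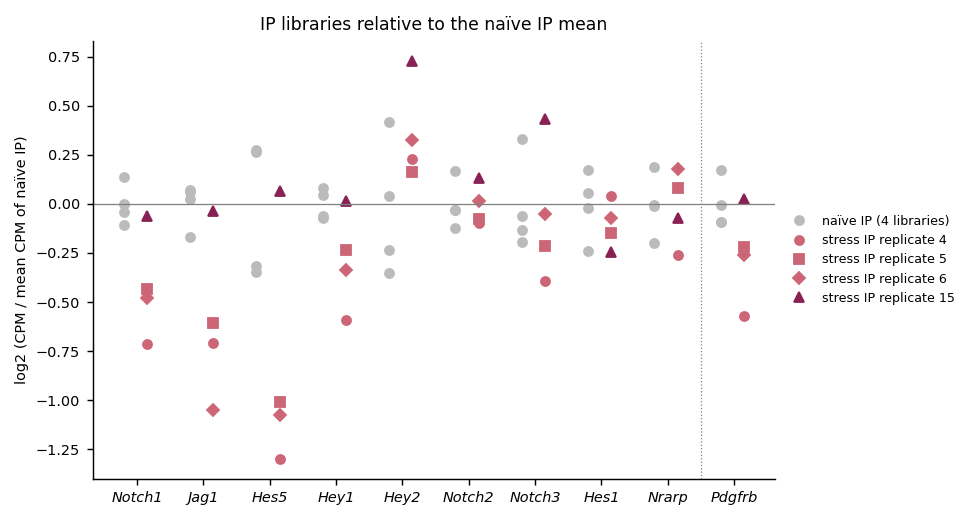
Level of 9 of the genes and of the mural marker Pdgfrb in each IP library, as log2 of its CPM over the mean of the 4 naïve IP libraries (y axis); grey points are naïve IP, and red symbols are the 4 stress IP libraries by replicate number. For Notch1, Jag1, Hes5 and Hey1, replicates 4, 5 and 6 lie below all grey points and replicate 15 among them, while Notch2 and Nrarp show no such arrangement.

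Marker levels also differed between the IP libraries, some in the arrangement of Notch1 and Jag1 and some not. Pdgfrb was 89.0, 114 and 110 CPM in stress IP replicates 4, 5 and 6 and 134 CPM in replicate 15, against 124 to 149 CPM in naïve IP, the arrangement seen for Notch1 and Jag1 (log2 difference −0.25, adjusted p 0.57). It was the only mural marker called higher in IP, and the sum of the other 6 was 7.72 to 14.1 CPM in naïve IP (median 9.97) and 6.85 to 13.2 CPM in stress IP (median 12.9). The endothelial sum was below the naïve range in all stress IP libraries, replicate 15 included, at 8.92 to 11.3 CPM against 11.5 to 17.7 CPM. The neuronal sum was 400, 361 and 408 CPM in stress IP replicates 4, 5 and 6, below all naïve IP libraries (439 to 571 CPM). In replicate 15 it was 515 CPM, inside their range, again the arrangement of Notch1 and Jag1. Its largest part was Snap25 (221 ± 28.4 CPM in naïve and 177 ± 36.9 CPM in stress IP, SD, n = 4). Of its 7 genes, only Tubb3 had a higher mean after stress (19.9 ± 2.97 and 24.1 ± 4.55 CPM), with 27.8 CPM in replicate 4. Gad2 hardly differed (9.42 ± 2.52 and 9.07 ± 2.51 CPM). The microglial sum was 17.8, 17.5 and 18.9 CPM in replicates 4, 5 and 6 and 30.6 CPM in replicate 15, against 18.7 to 24.4 CPM in naïve IP. The oligodendrocyte sum was 132, 200, 174 and 138 CPM in stress IP replicates 4, 5, 6 and 15, against 122 to 173 CPM in naïve IP. It was thus above the naïve range in replicates 5 and 6. For oligodendrocyte precursors the sum was 21.1, 15.8, 16.5 and 24.5 CPM in these libraries, against 18.8 to 29.5 CPM in naïve IP. The astrocyte sum was 89377 to 101184 CPM in stress IP, lowest in replicate 15, and 92808 to 96778 CPM in naïve IP. Of 40 markers, 33 were tested for stress in IP (3 of 6 endothelial and 3 of 7 mural, without Cldn5 and Kcnj8) and 40 in INPUT, and none tested was called. The part of these in the differences of Notch1, Jag1, Hes5 and Hey1 was not tested.

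In INPUT, where all cell types contribute, no gene of the 10 was called by limma, and 0.0442% of 13577 genes were. At an unadjusted p under 0.05, 4 of the 10 had lower values after stress and none had higher values, against 2.42% and 2.61% of all genes. These 4 were again Notch1, Jag1, Hes5 and Hey1. Jag1 measured 5.00, 5.30, 4.43 and 4.36 CPM in stress INPUT replicates 1, 9, 10 and 12, against 5.39 to 8.08 CPM in naïve INPUT. It was the only one of the 10 whose groups did not overlap, which held for 1.44% of genes in that direction. The log2 difference of Jag1 was −0.48 (SE 0.15, interval −0.79 to −0.17, adjusted p 0.59), and its exact permutation p of 0.029 is the smallest that 70 labelings allow.

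Notch1 measured 18.4, 17.1, 17.9 and 19.4 CPM in stress INPUT, against 19.0 to 24.9 CPM in naïve INPUT, so that 1 stressed library reached the naïve range. Its log2 difference was −0.27 (SE 0.098, adjusted p 0.86, exact permutation p 0.057). Hes5 measured 4.21, 5.34, 4.11 and 4.52 CPM, against 5.20 to 6.28 CPM, with a log2 difference of −0.33 (SE 0.14, adjusted p 0.95, exact permutation p 0.057). Here it was replicate 9 that lay inside the naïve range. Hey1 measured 45.7, 45.4, 38.9 and 40.7 CPM, against 43.6 to 50.7 CPM, a log2 difference of −0.17 (SE 0.075, adjusted p 0.97, exact permutation p 0.11). Notch2 had 29.2, 27.8, 30.3 and 34.4 CPM against 22.6 to 29.5 CPM, a log2 difference of 0.20 (SE 0.095, adjusted p 0.99, exact permutation p 0.14). The log2 differences of Notch3, Dll1, Hes1, Hey2 and Nrarp were 0.0048, 0.21, 0.11, 0.08 and −0.05, with intervals that all hold 0. The endothelial sum was 45.9 to 68.3 CPM in stress INPUT and 54.6 to 89.5 CPM in naïve INPUT, and Cldn5, the tight junction gene of brain endothelium, differed by −0.68 (adjusted p 0.60). Its part in the INPUT values was not tested.

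Of the 9 genes tested in both fractions, 4 had lower values after stress at an unadjusted p under 0.05 in IP and in INPUT, where 0.658% of 12306 genes did. Because earlier results of these data were known when the genes were chosen, this share too is a description. According to the study's methods INPUT was a share of the lysate used for IP. INPUT holds the astrocytes' RNA as well, so the fractions are not independent. When the stress effects in IP and INPUT were compared directly over all 16 libraries, no gene of the 10 differed and 0.0225% of 13341 genes did, nor did any of the 10 reach an unadjusted p under 0.05, as 4.71% of genes did. The difference of the effects was −0.15 for Notch1 (SE 0.15, interval −0.48 to 0.17), −0.12 for Jag1 (SE 0.23, interval −0.59 to 0.36), −0.46 for Hes5 (SE 0.31, interval −1.12 to 0.20) and −0.12 for Hey1 (SE 0.14, interval −0.41 to 0.17) on the log2 scale. These intervals leave room for a larger effect in either fraction.

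Among the 61 other pathway genes, 54 were tested for stress in IP and 56 in INPUT, and none was called in either or in the difference between the effects. At an unadjusted p under 0.05, 3 had higher and 3 lower values in IP (5.56% each, against 3.45% and 4.82% of all genes), and 2 had higher and 1 lower values in INPUT (3.57% and 1.79%, against 2.61% and 2.42%). The medians of the log2 differences were −0.063 in IP and −0.036 in INPUT. Dtx1, a Deltex ubiquitin ligase that acts on Notch receptors, was picked from its values: its 4 naïve IP libraries had a mean of 224 ± 10.9 CPM and its 4 stress IP libraries one of 192 ± 5.63 CPM (SD), groups that did not overlap (log2 difference −0.22, adjusted p 0.15). Groups did not overlap for 6 of the 54 in IP (11.1%, against 5% of all genes), lower for Dtx1, Furin, Tle4 and Ctbp2 and higher for Dtx3l and Kat2b. Dtx1 was called with all 16 libraries in one model (adjusted p 0.020, and 0.016 by limma-voom) and without naïve IP replicate 11 and stress IP replicate 15 (−0.25, adjusted p 0.045). Lfng, picked likewise, measured 149 ± 25.9 and 175 ± 11.4 CPM in IP (log2 difference 0.25, adjusted p 0.56) and 18.9 ± 4.12 and 24.2 ± 1.40 CPM in INPUT (log2 difference 0.38, adjusted p 0.69); without naïve INPUT replicate 14 it was called in INPUT, at 0.52 (adjusted p 0.027). No other of the 61 genes was called for stress under any alternative run.

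The genes whose profile over the 16 libraries was most like that of each of the 10 were found by Pearson's r of log2(CPM + 0.1) among 13341 genes. All 16 points share the difference between IP and INPUT, so r is high for any gene that is enriched alike, and it is given as a description. Hes5 and Hey1 were each other's nearest gene (r = 0.947), the lowest r of the 10. The nearest genes of the receptors were Ttc28 for Notch1 (0.998), Cachd1 for Notch2 (0.998) and Lrp1, a lipoprotein receptor, for Notch3 (0.994). For Jag1 it was Sall1 (0.994), for Dll1 Fbxl15 (0.987), for Hes1 the fatty acid sensor Ppara (0.988), for Hey2 Trp53bp2 (0.985) and for Nrarp Nkain4 (0.996).

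The libraries held 16392876 to 25814364 reads on genes, and 3 reads came to at most 0.183 CPM, so that only the Dll1 levels in IP lay near the limit of counting. The share taken by the 10 most abundant genes was 19.1% in naïve IP, 18.8% in stress IP and 3.78% and 3.80% in naïve and stress INPUT. No library was identical to another. The study's methods say that tissue of each animal was homogenized individually, while the labels do not tie libraries to animals, so the p-values measure the spread between these libraries.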

How the data were processed

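RNA from IP and INPUT of the somatosensory cortex was sequenced in 16 libraries, 4 per group. As given in the methods and the submitters' processing notes, reads were aligned to mm10 with STAR and counted on RefSeq genes with HTSeq. The authors deposited log2 CPM per gene for each library, scaled to its own total with a small constant added, without correction for length. Whether counting used strand is not given in the sources used here, so reads of overlapping antisense genes cannot be told apart. Subtracting the shared floor (0.25 reads at mean library size) gave CPM and whole reads, within 0.02 reads, for 100% of values. The 10 genes were taken by symbol, and the 2 symbols that occur more than once are not among them.

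Groups were compared with limma 3.58.1 (lmFit, eBayes with trend) in R 4.3.3 on log2(CPM + 0.1), after removing genes whose mean over the compared libraries was 1 CPM or less. Benjamini-Hochberg adjustment ran over all of them, with a threshold of 0.05. Exact permutation tests used the 70 labelings of 8 libraries and were two-sided; the smallest p is 0.029. The script was tested on simulated data. Tables and plots used Python 3.11.15, pandas 2.3.3, SciPy 1.17.1 and matplotlib 3.10.9. Promoters came from RefSeq on GRCm38.p6, exon lengths from GENCODE M21.

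The genes and lists were chosen with earlier results of these data known. All 10 genes were described whatever their values; of the pathway list, those called for stress in either fraction or in the difference between them and, for IP over INPUT in naïve mice, the highest and lowest of each role. Alternatives were a pseudocount of 1, no filter, median-ratio scaling, limma-voom, no variance trend, array weights, all 16 libraries in one model, Xist as covariate and each library left out. limma-voom with all 16 libraries, and leaving out naïve IP replicate 11 with stress IP replicate 15, were added after seeing the data. PCR reads are not independent molecules, so a floor of 3 reads covers counting error only.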

Additional observations from a re-analysis of the deposited data

Results flagged for a closer look

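For each of the 10 genes, the highest or lowest library of each group was set against the other 3 by Dixon's ratio, in 40 groups of 4 libraries, of which chance alone would single out about 2. Hes5 in stress IP replicate 15 measured 19.3 CPM, where the other 3 stressed libraries measured 7.49 to 9.17 CPM (ratio 0.858). Hey2 in naïve INPUT replicate 7 measured 4.36 CPM, where the other 3 lay between 5.24 and 5.31 CPM (ratio 0.924). The Hey2 gap was small beside the difference between IP and INPUT. The number of libraries singled out was 2.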

How the results depend on the processing

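No paired analysis was possible because the labels number each library once, from 1 to 16, and do not say which IP and INPUT came from 1 mouse. Between 0 and 3 of the 9 genes were called for stress in IP when 1 library was left out, 3 only without stress IP replicate 15. The count was 3 without replicates 11 and 15, 2 with array weights (Notch1, Jag1) and 2 with limma-voom over all 16 libraries. It was 0 in INPUT and in the difference of effects in every alternative run. Signs turned for values near 0. In IP, Notch2 was at 0.022 with array weights, 0.0089 without both libraries and −0.048 to 0.055 with 1 left out. Nrarp was at 0.049, 0.071 and −0.077 to 0.069, Notch3 at −0.20 to 0.075 with 1 left out, and Hes1 at 0.0089 without both and −0.18 to −0.037 with 1 left out. In INPUT, Notch3 was at −0.012 with limma-voom, −0.013 with all 16 in it and −0.11 to 0.12 with 1 left out, and Nrarp at −0.11 to 0.0064. The difference of effects ran from −0.21 to 0.073 for Notch3, −0.30 to 0.034 for Jag1 and −0.031 to 0.12 for Nrarp. Calls over all genes moved more: 55 in IP became 19 without variance trend, 143 with array weights, 124 with all 16 libraries, 112 with limma-voom on all 16, 213 without both libraries and 17 to 122 with 1 left out (122 without naïve IP replicate 11, 101 without stress IP replicate 15). The 6 in INPUT became 11 with median-ratio scaling, 0 without trend, 50 with array weights, 2 with all 16 and 1 to 32 with 1 left out (32 without naïve INPUT replicate 14). The 3 in the difference of effects became 19 with array weights and 2 to 28 with 1 left out (28 without naïve IP replicate 11, 5 without stress IP replicate 15). Depth limits only Dll1 in IP.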
